A study of Mus musculus with 2 samples.

Results

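The Mirg cluster is a run of microRNA hairpins on mouse chromosome 12, from the miR-379 hairpin to just past the miR-410 hairpin. It was measured here in cultured aortic smooth muscle cells from db/db mice, which are diabetic, and from db/+ controls. Members were chosen by name, from a list of 38 hairpin names, and both mature arms of each were taken. This gave 76 of the 1909 mature microRNA names in the deposited tables. Of these, 69 had at least 1 count, and 42 members from 31 hairpins reached 50 counts in at least 1 library, the floor used for ratios. No measured value is part of the choice by name, while the floor rests on the counts themselves. The remaining 34 members are described by their counts.

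The study profiled mature microRNAs by small RNA sequencing, with 1 library per group and 2 in all. The control library came from db/+ mice, labelled Lepr+/-, which carry 1 working copy of the leptin receptor gene. The diabetic library came from db/db mice, labelled BKS.Cg-m+/+Leprdb/J, which lack the working receptor and develop obesity and type 2 diabetes. Below, control and diabetic stand for these libraries, and a ratio is always diabetic over control. Per the labels, all mice were males of 10 to 12 weeks, and the cells of both groups were grown out of thoracic aorta in the same medium with 10% serum. The background strain of the db/+ mice and the number of mice behind each culture are not given in the sources used here. A db/db mouse is both obese and diabetic, and cultured cells are away from the blood glucose of the animal they came from.

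MicroRNAs are short RNAs cut from a hairpin precursor, whose arms are called 5p and 3p. A loaded arm pairs with messenger RNAs mainly through its seed, bases 2 to 8, and lowers their output. The cluster belongs to the imprinted Dlk1-Dio3 domain, where the noncoding RNAs Meg3, Rian and Mirg and the microRNAs among them are expressed from the maternal chromosome. The hairpins are generally regarded as pieces of long shared transcripts, induced by the transcription factor Mef2 in neurons. Members have also been studied in blood vessel growth after ischaemia and in the diabetic kidney.

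Sequences of the members with the highest and the lowest ratios between the libraries are shown first, since the account turns on them. They are mature sequences from RefSeq on GRCm38.p6, written 5′ to 3′ with the seed in capitals. RefSeq held 72 of the 76 members. The entries for miR-376c-3p, miR-485-5p, miR-487b-3p and miR-539-3p were missing.
miR-668-3p: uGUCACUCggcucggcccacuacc
miR-409-3p: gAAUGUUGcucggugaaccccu
miR-485-3p: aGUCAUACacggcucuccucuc
miR-543-3p: aAACAUUCgcggugcacuucuu
miR-541-5p: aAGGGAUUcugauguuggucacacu
miR-329-3p: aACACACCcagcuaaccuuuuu
miR-382-5p: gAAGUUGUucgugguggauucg
miR-377-3p: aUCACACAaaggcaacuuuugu
miR-369-3p: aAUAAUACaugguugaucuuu
miR-410-3p: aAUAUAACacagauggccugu
Among members past the floor, the first 7 were the highest, with ratios from 1.48 to 2.28, and the last 3 were the lowest apart from miR-376c-3p, with ratios from 0.339 to 0.654. None of these 10 seeds was shared with another of the sequences held.

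Few seeds were common to more than 1 member. Of 6 shared seeds, 3 belonged to members past the floor, shown here with the 5p arms of miR-299 because they give the family structure of the cluster.
miR-379-5p: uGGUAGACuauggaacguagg
miR-1193-5p: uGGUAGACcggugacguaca
miR-379-3p: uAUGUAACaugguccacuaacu
miR-411-3p: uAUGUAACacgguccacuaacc
miR-299a-5p: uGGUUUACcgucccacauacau
miR-299b-5p: gGUUUACCgucccacauacau
miR-299a-3p: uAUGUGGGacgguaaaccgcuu
miR-299b-3p: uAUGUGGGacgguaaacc
The miR-299a and miR-299b hairpins overlap on opposite strands of the same site. Each mature miR-299b sequence is contained whole in the matching miR-299a arm, and their counts differed by at most 2 in each library. Reads of these names therefore cannot be told apart. Counts below keep both names as the table lists them, and the value with the pair taken once is given beside the main counts of members above 1, hairpins and arms. The arms miR-379-3p and miR-411-3p differ at 2 of 22 bases and may share some reads. The 5p arms of miR-376b and miR-376c differ at 1 of 22 bases, and both were under the floor.

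Levels are given as counts per 1000000 microRNA counts of the library (CPM). The 76 members summed to 51552 counts in the control library and 63558 in the diabetic library. That is 0.199% of all microRNA counts in control (exact binomial 95% interval 0.197 to 0.201) and 0.262% in diabetic cells (0.260 to 0.264). The ratio of these sums, diabetic over control, was 1.32 with an exact conditional 95% interval of 1.30 to 1.33. Without miR-541-5p, the most abundant member, it was 1.28. All such intervals cover counting error only, since sequenced reads are copies of unknown numbers of molecules and there was no replicate library. No difference between the genotypes can be tested on such data, and in bulk RNA a changed number of expressing cells and a changed level per cell cannot be told apart.

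The sum was carried by few members. Among members past the floor, db/+ levels ran from 2.66 CPM through a median of 17.6 to 306 CPM, and db/db levels from 1.77 through 17.2 to 464 CPM. The 5 most abundant members held 52.5% of the cluster's counts in control and 59.5% in diabetic cells, and the 10 most abundant held 75.3% and 80.2%. The top member, miR-541-5p, ranked 55 among all microRNAs in the control library and 47 in the diabetic library. Of the 13 members with a mean of at least 1000 counts, 11 were higher in the diabetic library, with a median log2 ratio of 0.47. For the 29 less abundant ones, 12 were higher and the median was -0.17. The same limit over all microRNAs past the floor gave 66 of 118 higher with a median of 0.05, and 87 of 238 higher with a median of -0.22. The limit of 1000 counts was chosen after the values were seen.

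**Figure D1:**
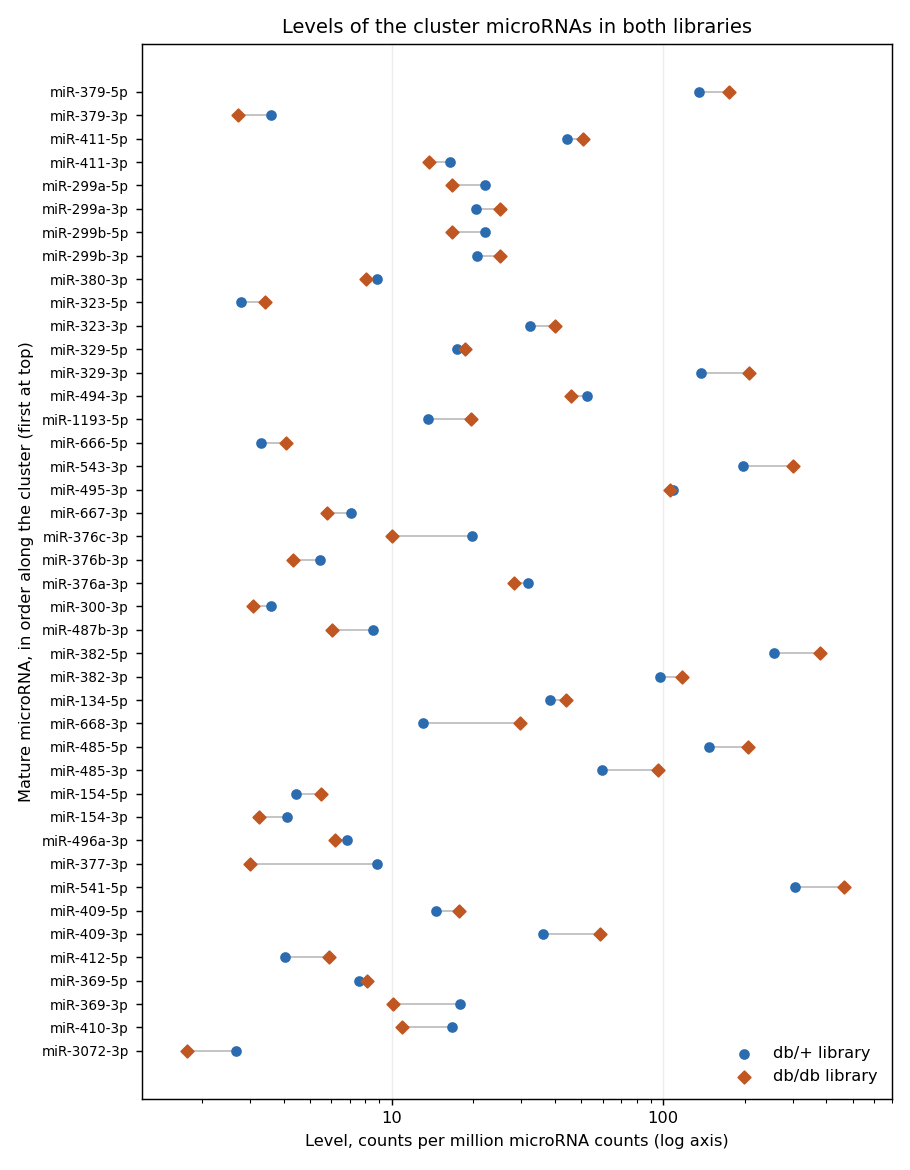
Level of each of the 42 members past 50 counts in the control library (circles) and the diabetic library (diamonds), on a log axis of CPM, in order along the cluster from the top. There is 1 library per group, so no error bars are drawn. The longest gaps belong to miR-668-3p, higher in diabetic cells, and to miR-377-3p and miR-376c-3p, lower in diabetic cells.

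Members differed in both directions, and most differences were small. Of the 42 past the floor, 23 had a ratio above 1, against 43% of all 356 microRNAs past the floor, and 19 had a ratio below 1. With miR-299b left out, 22 of 40 were above 1. Counting intervals lay wholly above 1 for 18 members (31.7% of all microRNAs) and wholly below 1 for 11 (44.1% of all). Only 1 member was at least 2-fold higher, against 4.49% of all microRNAs, and only 1 was at least 2-fold lower, against 13.5% of all. At 1.5-fold, 6 members were higher, a share near the 13.5% of all microRNAs, and 5 were lower, against 24.2% of all. The median log2 ratio of the members was 0.14, with quartiles at -0.32 and 0.35. Over all microRNAs past the floor the median was -0.14, with quartiles at -0.55 and 0.30. For 32 of the 42 members the counting interval excluded the cluster's summed ratio of 1.32, so one common ratio did not describe them within counting error.

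The member past 2-fold upward was miR-668-3p, which has been studied as a repressor of the mitochondrial fission protein Mtp18 in injured kidney. It had 337 counts in the control library (13.0 CPM) and 721 in the diabetic library (29.7 CPM), a ratio of 2.28 (2.00 to 2.61). Its precursor gene Mir668 lies on chromosome 12 from 109734732 to 109734797, plus strand, in an exon of Mirg. The 5p arm of this hairpin had 0 counts in both libraries, which allows up to 0.116 CPM in control and 0.123 CPM in diabetic cells.

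The member past 2-fold downward was miR-377-3p, known for its rise in glucose-treated kidney mesangial cells, where it raises fibronectin. It had 230 counts in control (8.87 CPM) and 73 in diabetic cells (3.005 CPM), a ratio of 0.339 (0.257 to 0.442). Mir377 lies from 109740510 to 109740577 on the plus strand, in an exon of Mirg. Its 5p arm, with 37 and 32 counts, had a ratio of 0.923 (0.556 to 1.52). The arms thus had different ratios, and the low value was on the 3p arm.

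Other members studied in diabetes and in blood vessels were split. In the diabetic kidney, miR-379 is a named member of the stress-induced cluster, and its major arm miR-379-5p had 136 CPM in control and 175 CPM in diabetic cells. The ratio was 1.29 (1.23 to 1.34). Blocking miR-329, miR-487b, miR-494 or miR-495 is known to improve blood vessel regrowth in mice with a tied-off limb artery. Of these, miR-329-3p had 138 CPM in control and 208 CPM in diabetic cells, a ratio of 1.51 (1.44 to 1.57), while miR-329-5p had a ratio of 1.07 (0.938 to 1.22).

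The other three lay at or below 1. Levels of miR-494-3p were 52.3 CPM in control and 45.9 CPM in diabetic cells, a ratio of 0.878 (0.810 to 0.951). For miR-495-3p they were 108 and 106 CPM, a ratio of 0.978 (0.927 to 1.03), which lay above 1, at up to 1.05, under each of 5 other scalings. For miR-487b-3p, which targets the insulin receptor substrate Irs1 in the artery wall, levels were 8.53 and 6.05 CPM, a ratio of 0.710 (0.572 to 0.878). Among these vascular members, therefore, the one clearly higher in diabetic cells was miR-329-3p and the one furthest below was miR-487b-3p.

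The miR-134 and miR-485 hairpins are named here for their known roles in neurons, as a choice made after their values were seen. The dendritic spine regulator miR-134-5p, which represses Limk1, had 38.4 CPM in control and 43.8 CPM in diabetic cells, a ratio of 1.14 (1.05 to 1.25). No count fell on miR-134-3p in either library. Both arms of miR-485, whose 5p arm represses the synaptic vesicle protein Sv2a, were well covered. The 5p arm had 148 and 206 CPM, a ratio of 1.39 (1.33 to 1.45), and the 3p arm 59.6 and 96.1 CPM, a ratio of 1.61 (1.51 to 1.72).

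The remaining abundant members were higher in diabetic cells as well. The most abundant, miR-541-5p, had 306 CPM in control and 464 CPM in diabetic cells, a ratio of 1.51 (1.47 to 1.56). Next came miR-382-5p with 256 and 378 CPM and a ratio of 1.48 (1.43 to 1.52). The ratio of miR-382-3p was 1.21 (1.15 to 1.28). The level of miR-543-3p was 196 CPM in control and 302 CPM in diabetic cells, a ratio of 1.54 (1.49 to 1.60). At 36.1 and 58.7 CPM, miR-409-3p had a ratio of 1.63 (1.498 to 1.77), second to miR-668-3p among members past the floor. Lower down in abundance, miR-412-5p had 1.45 (1.12 to 1.89) and miR-1193-5p had 1.43 (1.25 to 1.65). The last shares its seed with miR-379-5p, and both members of that pair were higher in diabetic cells.

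After miR-377-3p, the lowest ratios past the floor belonged to 3p arms, until miR-299a-5p at 0.755 (0.663 to 0.859). The other arm of that hairpin, miR-299a-3p, had 1.23 (1.09 to 1.38). With 514 counts in control and 243 in diabetic cells, miR-376c-3p had a ratio of 0.504 (0.431 to 0.589), just inside 2-fold. Its relatives miR-376b-3p and miR-376a-3p had 0.794 (0.611 to 1.03) and 0.889 (0.802 to 0.984). The miR-376 hairpins are known substrates of RNA editing, in which adenosine is converted to inosine, and how edited reads were assigned is not given in the sources used here. For miR-369-3p, with 464 and 245 counts, the ratio was 0.563 (0.480 to 0.659). For miR-410-3p, with 434 and 266 counts, it was 0.654 (0.559 to 0.763). At the end of the cluster, miR-3072-3p had only 69 and 43 counts and a ratio of 0.665 (0.443 to 0.987). Of the seed pair miR-379-3p and miR-411-3p, both were lower in diabetic cells, with ratios of 0.757 (0.544 to 1.05) and 0.836 (0.722 to 0.967), the first with an interval that included 1.

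Position along the cluster was compared next. The 38 hairpins span 38.9 kb of chromosome 12, from 109709060 to 109747960 on GRCm38, and all but miR-299b are on the plus strand. In GENCODE M21, 13 of the 38 lie inside Mirg (109729764 to 109749460), 9 overlapping an exon and 4 in introns. The other 25 lie before its annotated start, with no annotated host gene on their strand. Of 18 members past the floor inside Mirg, 12 had a ratio above 1 and the median log2 ratio was 0.28. Of 24 before it, 11 had a ratio above 1 and the median was -0.08. These 24 keep both names of the miR-299 pair, with the 3p arms above 1 and the 5p arms below. The Spearman correlation of log2 ratio with hairpin order was -0.01 over the 42 members, which share libraries and partly share hairpins, and that of mean CPM with order was -0.17.

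Some close neighbours had similar ratios and others did not. The summed arms of miR-409 and miR-412, 52 bases apart, had 1.51 and 1.44. Those of miR-369 and miR-410, 218 bases apart, had 0.713 and 0.712. A gap of 104 bases separates Mir668 from Mir485, where miR-668-3p had 2.28 and the summed miR-485 arms 1.45 (1.40 to 1.51), both above 1. On the other side, 522 bases away, miR-134 had 1.14. A gap of 1831 bases lies between Mir377 and Mir541, whose summed arms had ratios of 0.419 (0.331 to 0.528) and 1.51 (1.47 to 1.55). Summed over arms, 15 of 31 hairpins had ratios above 1 and 16 below, or 15 and 15 of 30 with miR-299 counted once. Among hairpins past the floor, the longest stretch of neighbours on one side was found after the values were seen. It was 7 hairpins below 1: miR-495, miR-667, miR-376c, miR-376b, miR-376a, miR-300 and miR-487b. Their summed ratios ran from 0.503 for miR-376c to 0.975 for miR-495. Counting intervals included 1 for miR-495 (0.924 to 1.03), miR-667 (0.728 to 1.11) and miR-300 (0.628 to 1.17). Under each of 5 other scalings miR-495-3p, the major arm of miR-495, lay above 1. Under the floor and passed over were miR-654 and miR-381 within the stretch and miR-539 and miR-544 after it. Before the stretch miR-543 had 1.54, and after it miR-382 had 1.40.

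**Figure D2:**
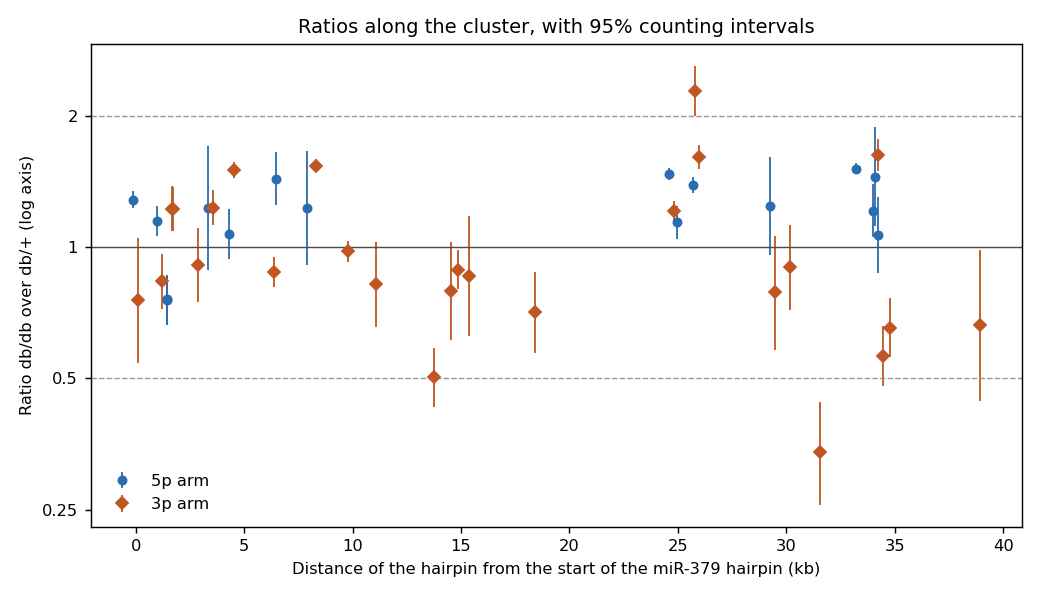
Ratio of the db/db over the control library (log axis) for the 42 members past 50 counts, against the distance in kb of the hairpin from the start of the miR-379 hairpin, with the arms drawn slightly apart. Bars are exact 95% counting intervals, the solid line marks a ratio of 1 and dashed lines mark 0.5 and 2. Points above and below 1 occur near both ends of the cluster. Between them, all points from miR-495 to miR-487b lie below 1 and all from miR-382 to miR-485 lie above it. The extremes are miR-668-3p at 2.28 and miR-377-3p at 0.339.

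The arms of the cluster were also compared as sets. Of 16 members from 5p arms, 14 had a ratio above 1, with a median log2 ratio of 0.30. Of 26 from 3p arms, 9 had a ratio above 1, with a median of -0.18. Counting miR-299 once, these were 14 of 15 and 8 of 25, with medians of 0.30 and -0.19, and the 5p arm below 1 was that of miR-299. Over all microRNAs past the floor, 80 of 177 5p arms and 66 of 168 3p arms had a ratio above 1, with medians of -0.09 and -0.18. Within hairpins the pattern was mixed. Counting miR-299 once, 10 hairpins had both arms past the floor, and the 5p arm had the larger ratio in 5. The arms lay on opposite sides of 1 in 5. Of these, miR-154, miR-369, miR-379 and miR-411 had the 5p arm above 1 and the 3p arm below, and miR-299 the reverse. For miR-154, miR-369 and miR-379, at least 1 arm had a counting interval that included 1. The median absolute difference between arms of a hairpin was 0.47 on the log2 scale.

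Arm usage is the 5p fraction of a hairpin's total, measured within a library, so it needs no scaling. It could be read for 31 hairpins whose arms together reached 50 counts in each library. The 3p arm held the majority in both libraries in 19, the 5p arm in 10, and the major arm differed between libraries for miR-299a and miR-299b only. A difference of 10 percentage points or more was found in 6 of the 31, or 5 of 30 with miR-299 counted once, against 9.8% of all hairpins measured.

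Most of these hairpins had a larger 5p share in the diabetic library. For miR-369 the 5p share was 29.8% of 661 counts in control (26.3 to 33.5) and 44.6% of 442 in diabetic cells (39.9 to 49.3). The 5p arm had 197 counts in each library, a ratio of 1.07 (0.871 to 1.31), while the 3p counts were lower in diabetic cells. For miR-377 the share was 13.9% (9.95 to 18.6) in control and 30.5% (21.9 to 40.2) in diabetic cells. The shares of miR-3072, on only 90 and 79 counts, were 23.3% (15.1 to 33.4) and 45.6% (34.3 to 57.2). For miR-154 the shares were 51.8% (45.02 to 58.5) and 62.9% (56.0 to 69.4), with overlapping intervals. The other direction was seen for miR-299a, with 51.8% (48.8 to 54.8) of 1104 counts in control and 39.9% (36.8 to 42.9) of 1016 in diabetic cells.

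In the last hairpin of the miR-379 to miR-410 stretch, the minor arm differed in the direction opposite to the major arm, and its sequence is shown for that reason.
miR-410-5p: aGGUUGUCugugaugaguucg
This arm had 2 counts in control and 25 in diabetic cells, a ratio of 13.3 with a wide interval of 3.32 to 116. The 5p share of miR-410 was 0.459% (0.0556 to 1.65) in control and 8.59% (5.64 to 12.4) in diabetic cells. The seed of miR-410-5p equals that of miR-494-5p, which had 10 and 16 counts and a ratio of 1.71 (0.728 to 4.21).

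**Figure D3:**
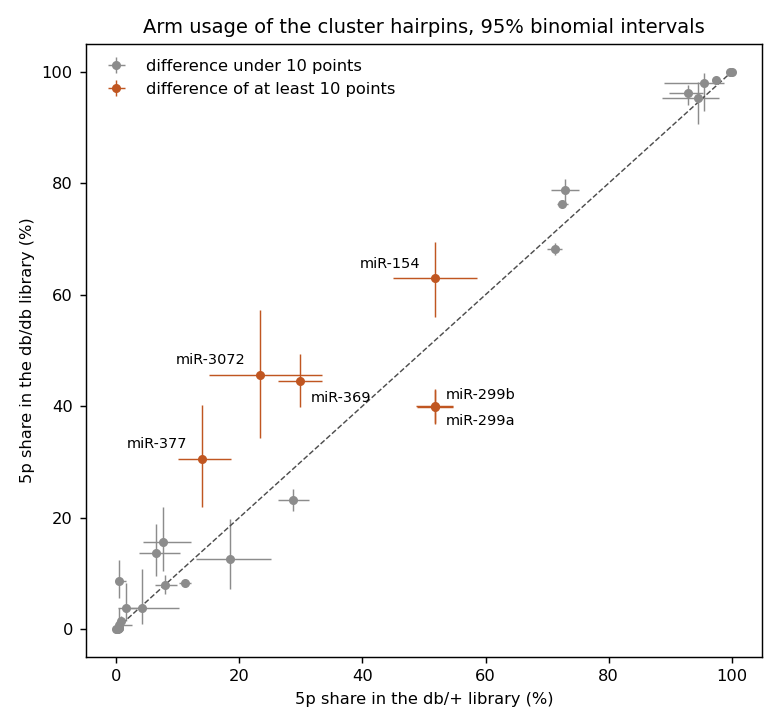
Share of counts on the 5p arm, in percent, in the diabetic library against the control library, for the 31 cluster hairpins whose arms together reached 50 counts in each library. Bars are exact binomial 95% intervals and the dashed line marks equal shares. Points for miR-369, miR-377, miR-3072 and miR-154 lie above the line, those for miR-299a and miR-299b lie below it and coincide, and most other hairpins lie near it.

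The ratios moved with base composition. Of 39 members past the floor with a sequence, the Spearman correlation of log2 ratio with the percent of G and C bases was 0.48 (Pearson 0.46). Over the 286 of 356 microRNAs with a sequence, members included, it was 0.38 (Pearson 0.27). These microRNAs come from the same 2 libraries and are not independent points. Below 45% G and C, a limit set after the values were seen, 3 of 13 members had a ratio above 1, with a median log2 ratio of -0.17. At or above it, 19 of 26 did, with a median of 0.29. The same split of all microRNAs gave 24 of 93 with a median of -0.38, and 108 of 193 with a median of 0.08. Among the extremes, miR-668-3p is 66.7% G and C, miR-377-3p is 36.4% and miR-369-3p is 23.8%. The 3 members below the limit with a ratio above 1 were miR-329-3p (40.9%, ratio 1.51), miR-541-5p (44.0%, 1.51) and miR-382-3p (36.4%, 1.21). The 7 at or above it with a ratio below 1 included miR-3072-3p (63.6%, 0.665) and miR-667-3p (65.2%, 0.822), and the others were miR-300-3p, miR-411-3p, miR-494-3p and the 5p arms of miR-299a and miR-299b. The part of base composition in the ratios was not tested.

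**Figure D4:**
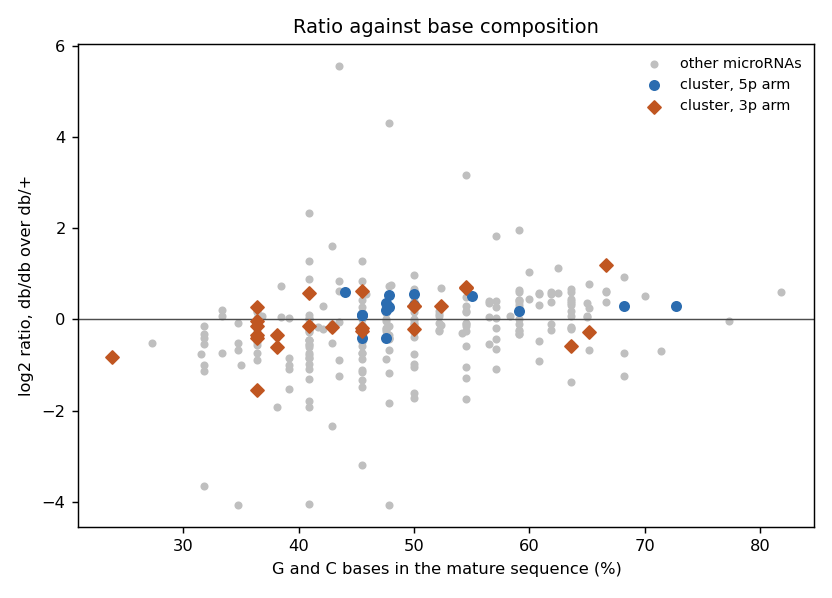
Log2 ratio of db/db over db/+ against the percent of G and C bases in the mature sequence, for 286 microRNAs past 50 counts that have a RefSeq sequence. Cluster members are circles (5p arms) and diamonds (3p arms) over other microRNAs in grey, and each point is 1 microRNA in 1 pair of libraries with no error bar. Cluster members below 45% lie mostly under 0 and those above it mostly over 0.

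Of the 34 members under the floor, 7 had no count in either library, 23 were counted in both and 4 in control only. None exceeded 37 counts, and together they held 296 counts in control and 286 in diabetic cells. Those without a count were both arms of miR-654, the 5p arms of miR-1197 and miR-668 and the 3p arms of miR-134, miR-539 and miR-544. The hairpin of miR-679 had 6 counts in control and none in diabetic cells. Counting intervals excluded 1 upward for 3, which were miR-410-5p, miR-380-5p (16 and 31 counts) and miR-3072-5p (21 and 36). They excluded 1 downward for another 3. Of these, miR-541-3p had 19 counts in control and 3 in diabetic cells, miR-495-5p had 9 and 1, and miR-376b-5p had 32 and 15. The passenger arm of miR-541 was thus lower where its abundant 5p arm was higher. Shares over all microRNAs under the floor are not given here, so the counts of 3 upward and 3 downward have no background beside them.

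Other microRNAs of the imprinted domain give a frame for these values. The anti-Rtl1 group, named for hairpins opposite the Rtl1 gene and taken here with their near neighbours, had 17 names past the floor, 11 with a ratio above 1, none at 2-fold and a median log2 ratio of 0.30. Its summed ratio was 1.36 (1.34 to 1.38). On the Meg3 side, 2 names passed the floor, with a median of 0.31, and the summed ratio was 1.23 (1.07 to 1.41). Whether the Mirg cluster differs from these groups could not be tested with 1 library per group.

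The libraries held 25915732 counts over 881 detected microRNAs in control and 24295112 over 833 in diabetic cells. Smooth muscle markers, all 4 of them detected, summed to 1656 CPM in control and 1567 CPM in diabetic cells, led by miR-143-3p. Both endothelial markers summed to 0.270 and 2.92 CPM, with miR-126a-5p at 2 and 58 counts and miR-126a-3p at 5 and 13. The 4 blood markers summed to 6.44 and 6.63 CPM, with miR-223-3p and miR-142a-3p at 0. The 3 neural markers summed to 20.4 CPM in control and 3.75 CPM in diabetic cells. Among them, miR-9-5p had 347 and 19 counts, miR-9-3p had 154 and 11, and miR-124-3p had 28 and 61. The part of these cell types in the results was not tested.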

How the data were processed

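Small RNA sequencing counts of 2 libraries were used, 1 from db/+ and 1 from db/db smooth muscle cell cultures. Each table holds, per the file headers, a raw count and a TMM-normalized count of reads for every mature microRNA name. The deposited normalized reads are whole numbers and were treated as a score, used in 1 alternative scaling. Novoalign, edgeR and mm10 stand in the submitters' processing notes, and other steps, including the treatment of reads matching several names, are not given in the sources used here.

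Counts were divided by the library total, 25915732 in db/+ and 24295112 in db/db, so abundant microRNAs set the scale. Ratios carry exact conditional (Clopper-Pearson) 95% intervals, and log2 ratios had 0.5 counts added. With 1 library per group, no fit of edgeR's quasi-likelihood test was possible and no p-value is given. Called means a ratio of at least 2 or at most 0.5 with at least 50 counts in a library. A count of 0 was taken to allow 3 counts. Hairpins were placed by name with GENCODE M21 (GRCm38, also called mm10), and sequences came from RefSeq. The computation was tested on simulated counts. Alternatives used edgeR 4.0.16 and DESeq2 1.42.0 size factors, other floors, folds and added counts.

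Members and lists were chosen with earlier results of these data known. Named members are those past 2-fold, the 8 highest and 8 lowest ratios, the 10 most abundant, those with arm differences or near-identical counts, and hairpins with known roles. Other members named were chosen after their values were seen.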

Additional observations from a re-analysis of the deposited data

How the results depend on the processing

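With 1 library per group no result has a replicate check, and no library could be left out. No paired analysis was possible because the groups hold a single library each. Through the library sizes, other scalings shifted log2 ratios up by 0.06 to 0.10. With the deposited reads, which are whole numbers, members of few counts could move otherwise. There the ratio of miR-410-5p went from 13.3 to 13, and that of miR-494-5p from 1.71 to 1.89. The summed ratio of 1.32 became 1.40 with edgeR TMM factors, DESeq2 size factors (1.400) and the authors' deposited TMM-normalized reads (1.397), 1.41 with upper-quartile factors, 1.37 without the 10 most abundant microRNAs in the total, and 1.28 without miR-541-5p. The median log2 ratio of 0.14 became 0.23 with edgeR TMM and with deposited TMM reads, 0.24 with DESeq2 (0.235) and upper quartile (0.242), and 0.20 without the 10 most abundant. It was 0.10 at a floor of 10 counts, 0.19 at 100, 0.093 with no floor, and 0.19 without miR-3072, the last chosen after the data were seen. Counts at 2-fold, 1 higher and 1 lower, stayed under all 5 other scalings and at a floor of 100. A floor of 10 gave 3 higher and 2 lower, dropping the floor gave 5 and 8, and a 1.5-fold rule gave 6 and 5. Members above 1 numbered 35 of 69 with no floor, which adds members of few counts. Arm differences numbered 12 at a limit of 5 points. Shares over all microRNAs are not given for the floors of 10 and 100, for no floor or for the limit of 5 points. One member, miR-495-3p, crossed 1 under other scalings. Of single ratios under other scalings, 139 values stayed inside their counting interval and 36 left it, none of a called member changing side. Leaving out miR-299b, also chosen after the data were seen, changed no count by over 1.5-fold. Depth limits members under 50 counts, whose intervals span several fold.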
